A study of Arabidopsis thaliana with 24 samples.

Results

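STZ and 6 loci known here by their AGI names, AT4G29780, AT2G25735, AT4G27654, AT3G02840, AT2G22880 and AT1G32920, were followed across the 12 groups of a salt stress study of Arabidopsis thaliana leaves. The 7 genes have a transient induction by stress or wounding in common, and they were selected on the size of their changes between groups in these same arrays. Each was read by 1 probe set of the Affymetrix ATH1 array, so they make up 7 of 22746 probe sets that are not controls. Because measured differences selected them, their levels and differences are a description. How many of them passed the limma threshold is given beside the share of all probe sets that did, and is no test of these genes, since their selection favours passing.

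The study set 3 transgenic lines beside their wild types, each grown with 100 mM NaCl and without NaCl (0 mM). The CBF3 overexpression line is in the Ws background and was set against Ws. The M6PR line is in Col-0 and was set against Col; its transgene encodes a reductase that makes mannitol in celery. The SOS1 line overexpresses a transporter that moves sodium out of cells; it is in Col(gl), a glabrous Columbia, and was set against Col(gl). Salted plants received NaCl in steps of 50 mM every 2 days from day 14 after sowing, and all leaves were taken at day 20, after 6 days of salt treatment. The salt solution was given from below and sprayed on the plants. Each group had 2 biological replicates, with leaves of at least 15 seedlings in each, and days had 10 h light and 14 h dark. The promoter of each transgene and the number of independent lines are not given in the labels used here.

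STZ, also called ZAT10, encodes a C2H2 zinc finger protein that represses transcription and is known from salt, cold, drought and wounding responses. Genes of this kind belong to a rapid general stress response: their transcripts accumulate soon after a plant is wounded, touched, chilled or exposed to an elicitor, and most decay again when the stimulus ends. Calcium signals and WRKY and ERF transcription factors act in the same early response. For the 6 AGI loci the sources used here give a name and no function.

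As leaf markers, RCA, for Rubisco activase, read 13.4 to 13.9 log2 units and LHCB4.1, for a light-harvesting protein, 13.2 to 13.6 over the 24 arrays. The root hair expansin genes EXPA7 and EXPA18 read 4.22 to 5.17 and 4.28 to 5.36; signals of different probe sets cannot be set against each other. Ws with salt replicate 1 and Col with salt replicate 1 stood out in their control probe sets. Their dap spike-in probe sets averaged 4.86 and 5.03, against 7.33 to 9.52 in the other 22 arrays, and their 25S rRNA signal was 4.98 and 4.52, against 6.58 to 10.4. Their actin 3' probe sets exceeded the 5' ones by 2.04 and 1.61 log2 units, against 0.54 to 1.15 in the others, a measure that rises as RNA is degraded; its part in the salt differences of Ws and Col was not tested. Some of the differences and correlations that use these arrays are also given without them. With 2 arrays in a group, the number of arrays limits the precision of every value, and the spread between them is that of pooled leaf samples.

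STZ was low in the unsalted Ws and Col leaves and high in most other Columbia leaves. In the Ws background its signal was 7.64 and 8.16 log2 units in CBF3 with salt, 7.23 and 8.22 in Ws with salt, 7.41 and 7.18 in CBF3 without salt, and 4.89 and 4.53 in Ws without salt. In the Col background it was 9.38 and 10.25 in M6PR with salt, 10.34 and 11.04 in Col with salt, 9.04 and 9.17 in M6PR without salt, and 5.67 and 5.90 in Col without salt. In the Col(gl) background it was 10.00 and 7.53 in SOS1 with salt, 8.95 and 8.75 in Col(gl) with salt, 9.64 and 11.19 in SOS1 without salt, and 9.52 and 9.59 in Col(gl) without salt. Ordered by mean, Ws without salt was lowest (4.71 ± 0.257, SD, n = 2), then Col without salt (5.79 ± 0.159) and CBF3 without salt (7.30 ± 0.158), and the arrays of these 3 groups did not overlap. Of the 11 pairs of neighbours in that order, 7 overlapped, so the order above CBF3 without salt is mostly within the spread of arrays. The highest mean was that of Col with salt (10.69 ± 0.494).

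**Figure D1:**
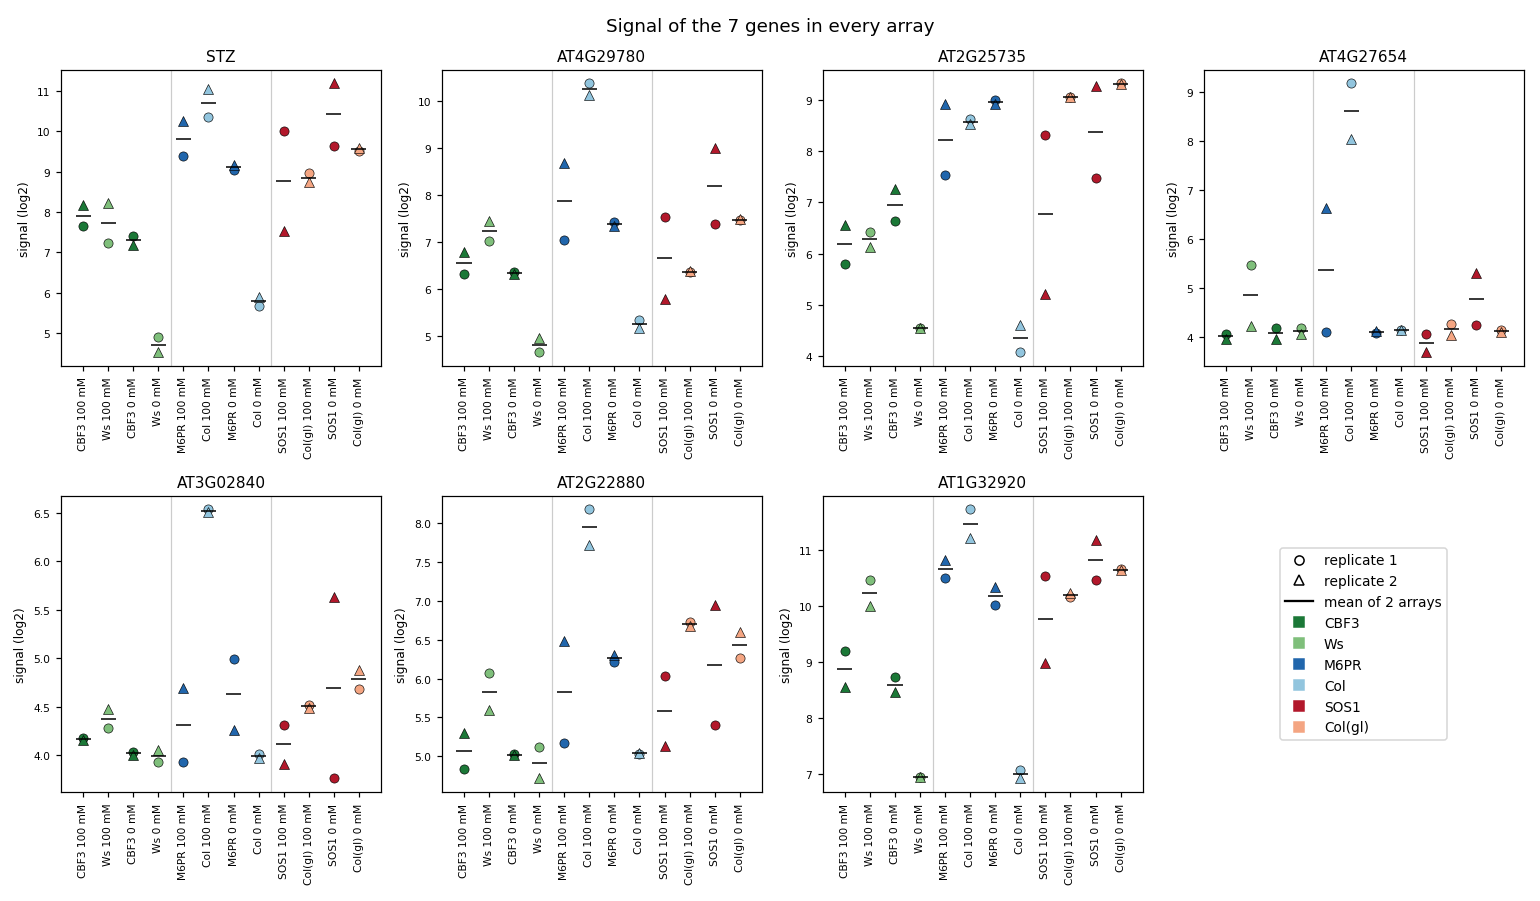
Signal (log2, as deposited) of each of the 7 genes in all 24 arrays; circles are replicate 1, triangles replicate 2, bars the mean of 2 arrays, and each panel has its own axis. STZ, AT4G29780, AT2G25735 and AT1G32920 sit lowest in unsalted Ws and unsalted Col, and AT4G27654 stays near 4 outside Col with salt except in single arrays.

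AT1G32920 followed STZ most closely. Its highest array was 11.72 in Col with salt and, outside unsalted Ws and Col, its lowest was 8.47 in CBF3 without salt. It read 6.95 and 6.94 log2 units in Ws without salt and 7.07 and 6.93 in Col without salt, so the 4 unsalted Ws and Col arrays did not overlap with any other array. In unsalted Col(gl), 10.65 was read on both arrays.

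AT4G29780 had the same low groups. Its signal was 10.37 and 10.11 in Col with salt, against 5.33 and 5.17 in Col without salt and 4.65 and 4.95 in Ws without salt. Every array of the other groups lay between, from 5.79 in SOS1 with salt to 9.0 in SOS1 without salt. The step from SOS1 without salt, the second highest mean, to Col with salt was 2.05 log2 units, and the arrays did not overlap.

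AT2G25735 was the only one of the 7 genes whose highest group mean was not Col with salt. It read 9.33 and 9.31 in Col(gl) without salt, 9.06 and 9.05 in Col(gl) with salt, and 8.99 and 8.92 in M6PR without salt. Col with salt had 8.63 and 8.53, against 4.07 and 4.61 in Col without salt. In the Ws background it read 5.8 and 6.56 in CBF3 with salt, 6.43 and 6.13 in Ws with salt, 6.63 and 7.26 in CBF3 without salt, and 4.55 and 4.54 in Ws without salt. All arrays of both Col(gl) wild-type groups were thus higher than all arrays of the Ws background. The SOS1 line, also in Col(gl), read 8.32 and 5.20 with salt and 7.47 and 9.27 without salt, and overlapped with the Ws background.

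AT4G27654 was high in a single group. Its signal was 9.17 and 8.03 in Col with salt, and 4.14 on both arrays of Col without salt. Single arrays stood above the rest elsewhere: 6.62 in M6PR with salt (4.09 in its other array), 5.47 in Ws with salt (4.23 in its other array) and 5.29 in SOS1 without salt (4.24 in its other array). The remaining arrays lay between 3.69 and 4.27, and detection calls were not used, so whether those signals were above background was not checked. Of the 11 neighbouring pairs in its order of group means, 10 overlapped, the exception being the step of 3.24 log2 units up to Col with salt.

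AT3G02840 and AT2G22880 had smaller spans, 2.53 and 3.04 log2 units between the lowest and the highest group mean. AT3G02840 read 6.53 and 6.51 in Col with salt and 3.76 to 5.63 in the other 22 arrays. AT2G22880 read 8.18 and 7.73 in Col with salt and 4.71 to 6.94 in the others. AT2G22880 reached 6.07 at most in the 8 arrays of the Ws background and was at least 6.26 in the 4 arrays of Col(gl) wild type. In SOS1, also in Col(gl), it read 6.03 and 5.13 with salt and 5.4 and 6.94 without salt. A lower signal in bulk leaves can come from fewer expressing cells or from less RNA per cell, and the arrays cannot tell these apart.

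Of the salt comparisons, that in Col leaves had the largest difference for each of the 7 genes. AT4G29780 was 4.99 ± 0.55 log2 units higher with salt (SE from a limma fit over all 24 arrays, n = 2 arrays per group, as for all differences below), STZ 4.90 ± 0.62, AT1G32920 4.47 ± 0.38, AT4G27654 4.46 ± 0.60, AT2G25735 4.24 ± 0.74, AT2G22880 2.91 ± 0.45 and AT3G02840 2.52 ± 0.41. All 7 were past the limma threshold of an adjusted p of 0.05, and all 7 had both salted arrays above both unsalted arrays. In that comparison 20.9% of all probe sets passed, those higher with salt being 10.1% of all, and 27% of all had both salted arrays higher. The median of the 7 differences was 4.46, against -0.12 over all probe sets. Without the 2 arrays with low control signals 7 of the 7 and 1731 of all probe sets passed, against 4764 of all with them. The median of the 7 was then 4.19, and the single differences ran from 2.51 for AT3G02840 to 5.25 for STZ.

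In Ws leaves the same 7 genes all had both salted arrays above both unsalted arrays, with 24.2% of all probe sets doing so. AT1G32920 was 3.28 ± 0.38 log2 units higher with salt, STZ 3.01 ± 0.62 and AT4G29780 2.43 ± 0.55. These 3 were past the threshold, as were 4.71% of all probe sets, those higher being 2.62% of all. AT2G25735 was at 1.74 ± 0.74, AT2G22880 at 0.92 ± 0.45, AT4G27654 at 0.72 ± 0.60 and AT3G02840 at 0.39 ± 0.41. Fewer of the 7 passed without any 1 of the 4 arrays. The count over all probe sets fell without either unsalted Ws array or without Ws with salt replicate 1. It rose without Ws with salt replicate 2. Without the 2 arrays with low control signals AT4G27654 was at 0.10 and STZ at 3.51, and 278 of all probe sets passed, against 1072 with them.

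Col(gl), the other Columbia wild type, did not show that pattern. With salt, AT4G29780 was at -1.11 ± 0.55 log2 units, STZ at -0.70 ± 0.62, AT1G32920 at -0.45 ± 0.38, AT3G02840 at -0.28 ± 0.41 and AT2G25735 at -0.27 ± 0.74. AT2G22880 was at 0.27 ± 0.45 and AT4G27654 at 0.03 ± 0.60. Of the 7, 5 had both salted arrays below both unsalted ones and 1 had both above, where 28.4% and 26.5% of all probe sets did. No gene of the 7 was past the limma threshold and 0 had an unadjusted p below 0.05, beside 0.132% of all probe sets past it and 1205 with an unadjusted p below 0.05. With array weights 1 of the 7 passed. Over the alternative fits that kept all Col(gl) arrays, the count of all probe sets ran between 26 and 1519. The arrays of unsalted Col(gl) were already high for STZ, 9.52 and 9.59, against 5.67 and 5.90 in unsalted Col.

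In the 3 transgenic lines salt went with small or scattered differences of the 7 genes. In CBF3 they ran from -0.76 ± 0.74 for AT2G25735 to 0.61 ± 0.62 for STZ, with a median of 0.15, and 2 genes had both salted arrays higher and 1 both lower, as 15.3% and 15.7% of all probe sets had. In M6PR they ran from -0.73 ± 0.74 for AT2G25735 to 1.26 ± 0.60 for AT4G27654, with a median of 0.47, and without M6PR with salt replicate 2 that median was -0.33. AT4G27654 was at -0.01 without that array and at 2.52 without replicate 1; 2 genes had both salted arrays higher and 1 both lower, as 16% and 20.2% of all probe sets had. In SOS1 all 7 differences were negative, from -1.65 ± 0.62 for STZ to -0.58 ± 0.41 for AT3G02840, but only AT4G27654 had arrays that did not overlap, where 6.41% of all probe sets had all salted arrays lower. Single arrays set these sizes and 2 of the signs: STZ lay between -2.88 and -0.41 with 1 array left out, and without SOS1 without salt replicate 2 AT3G02840 was at 0.35 and AT2G22880 at 0.18. None of the 7 was past the limma threshold in any of the lines, and at an unadjusted p below 0.05 there were 0 in CBF3, 0 in M6PR and 4 in SOS1. Over all probe sets 0.00879% passed in CBF3, 0.541% in M6PR and 0% in SOS1, where 1694 probe sets had an unadjusted p below 0.05. How many of the 7 passed in SOS1 varied with the array left out, as did the count over all probe sets.

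**Figure D2:**
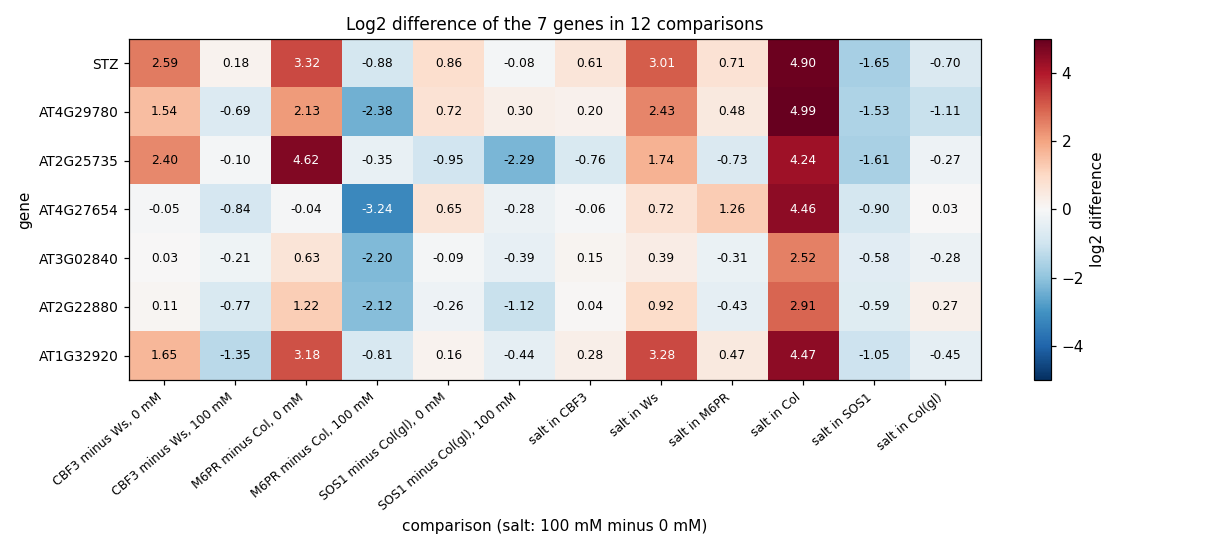
Log2 difference of each of the 7 genes (rows) in the 12 comparisons (columns); red is higher and blue lower in the first-named or salted group, and the colour scale ends at 5 log2 units either way. The column of salt in Col is positive for all 7 genes, from 2.52 to 4.99, and that of salt in SOS1 is negative for all 7.

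The comparisons of a line with its wild type use the same arrays as those of salt, so each gives the same levels from another side. Without salt, M6PR leaves were 4.62 ± 0.74 log2 units higher than Col leaves for AT2G25735, 3.32 ± 0.62 for STZ, 3.18 ± 0.38 for AT1G32920 and 2.13 ± 0.55 for AT4G29780. These 4 were past the threshold, beside 10.3% of all probe sets, 4.87% higher. Fewer of these genes, and fewer of all probe sets, passed with any 1 of the 4 arrays left out. AT2G22880 was at 1.22 ± 0.45 and AT3G02840 at 0.63 ± 0.41, and with these 6 genes had both M6PR arrays above both Col arrays, as 21.4% of all probe sets did. AT4G27654 was at -0.04 ± 0.60, with both M6PR arrays below both Col arrays, as 34.8% of all probe sets had.

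With salt all 7 differences were negative. AT4G27654 was at -3.24 ± 0.60 in M6PR against Col, AT4G29780 at -2.38 ± 0.55, AT3G02840 at -2.20 ± 0.41, AT2G22880 at -2.12 ± 0.45, STZ at -0.88 ± 0.62, AT1G32920 at -0.81 ± 0.38 and AT2G25735 at -0.35 ± 0.74. AT4G27654, AT3G02840 and AT2G22880 were past the threshold, beside 0.528% of all probe sets, 0.356% lower, and 6 genes had both M6PR arrays below both Col arrays, as 23.7% of all probe sets did. These values rest on single arrays. AT4G27654 was at -1.97 without M6PR with salt replicate 1 and at -4.50 without M6PR with salt replicate 2. The median of the 7 was -1.90 without the 2 arrays with low control signals and lay between -2.58 and -1.47 with 1 array left out. In a separate fit per background 0 of the 7 and 49 of all probe sets passed. With array weights 2 of the 7 passed, beside 37 of all probe sets. Without the dimmest 40% of probe sets, a fit that does not hold all 7 genes, 0 passed, beside 58 of the probe sets tested. Quantile normalization and centring each called 3, beside 146 and 119 of all probe sets, and the replicate block 2, beside 102. The calls did not hold with every array left out, and the count over all probe sets changed too.

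CBF3 leaves without salt were higher than Ws leaves for 4 of the 7 genes. STZ was 2.59 ± 0.62 log2 units higher, AT2G25735 2.40 ± 0.74, AT1G32920 1.65 ± 0.38 and AT4G29780 1.54 ± 0.55, and these 4 had both CBF3 arrays above both Ws arrays, as 28.6% of all probe sets did. STZ and AT1G32920 were past the threshold, beside 6.79% of all probe sets, 3.2% higher. A separate fit per background and array weights each called 4, beside 1033 and 3780 of all probe sets. With any 1 of the 4 arrays left out, fewer of the 7 passed than with all arrays. Fewer of all probe sets passed too, by the smallest margin without CBF3 replicate 2. AT2G22880, AT3G02840 and AT4G27654 were at 0.11, 0.03 and -0.05. With salt, AT1G32920 was at -1.35 ± 0.38 in CBF3 against Ws, AT4G27654 at -0.84 ± 0.60, AT2G22880 at -0.77 ± 0.45, AT4G29780 at -0.69 ± 0.55 and AT3G02840 at -0.21 ± 0.41. These 5 had both CBF3 arrays below both Ws arrays, as 21.9% of all probe sets did. STZ was at 0.18 ± 0.62 and AT2G25735 at -0.10 ± 0.74. At the limma threshold 0 of the 7 passed with salt and 1 had an unadjusted p below 0.05, beside 3.73% of all probe sets past the threshold and 4217 at an unadjusted p below 0.05. A separate fit per background, array weights and a fit without the dimmest probe sets each called 1, beside 572, 780 and 853 of the probe sets tested. Without the 2 arrays with low control signals the median difference was -0.32, against -0.69 with them. STZ was then at -0.32 and AT2G25735 at 0.05, both with a changed sign, and the other 5 genes stayed negative.

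In SOS1 against Col(gl) no gene of the 7 was past the limma threshold at either salt level. Without salt STZ was at 0.86 ± 0.62, AT4G29780 at 0.72 ± 0.55 and AT2G25735 at -0.95 ± 0.74; 0 had an unadjusted p below 0.05, 1.24% of all probe sets passed the threshold and 3226 had an unadjusted p below 0.05. Of the 7, 2 had both SOS1 arrays higher and 1 both lower, as 16.8% and 22.6% of all probe sets had. With salt AT2G25735 was at -2.29 ± 0.74 and AT2G22880 at -1.12 ± 0.45; these 2 had an unadjusted p below 0.05, 3.13% of all probe sets passed the threshold and 3277 had an unadjusted p below 0.05. Of the 7, 3 had both SOS1 arrays lower, as 20.9% of all probe sets had. The SOS1 arrays decided these values. Without SOS1 replicate 1 of the unsalted group STZ was at 1.63, and without replicate 2 at 0.09. In the salted groups STZ was at -1.32 without SOS1 replicate 1 and at 1.15 without replicate 2, and AT2G25735 at -3.85 and -0.73. With 1 array left out the median of the 7 lay between -0.19 and 0.85 without salt and between -1.21 and -0.10 with salt. How many of the 7 passed varied with the array left out, as did the count over all probe sets.

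In 3 groups the 7 genes differed in the same direction between replicates, which is a description like their levels. In SOS1 without salt all 7 were lower in replicate 1, by 0.72 log2 units for AT1G32920 to 1.86 for AT3G02840. In SOS1 with salt all 7 were higher in replicate 1, by 0.37 for AT4G27654 to 3.12 for AT2G25735. In M6PR with salt all 7 were lower in replicate 1, by 0.33 for AT1G32920 to 2.53 for AT4G27654. In these groups the median difference of all probe sets was -0.04, -0.02 and 0.00, and 47.2%, 47.1% and 49.9% of all probe sets were higher in replicate 1. In the other 9 groups the 7 genes did not share 1 sign, and their median differences lay between -0.46 in CBF3 with salt and 0.30 in Ws with salt. Over all probe sets the SD of the replicate difference was 0.625 in SOS1 without salt, 0.521 in SOS1 with salt and 0.518 in M6PR with salt. It was 0.488 in Ws, 0.467 in CBF3 and 0.411 in Col with salt, where the 7 genes did not share 1 sign, and 0.170 to 0.373 in the other 6 groups. Of 15 other early stress genes, described below, 12 were lower and 3 higher in replicate 1 of SOS1 without salt. In SOS1 with salt 13 were higher and 2 lower, and in M6PR with salt 10 were lower and 5 higher. In unsalted Ws and unsalted CBF3, 11 were lower and 4 higher.

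**Figure D3:**
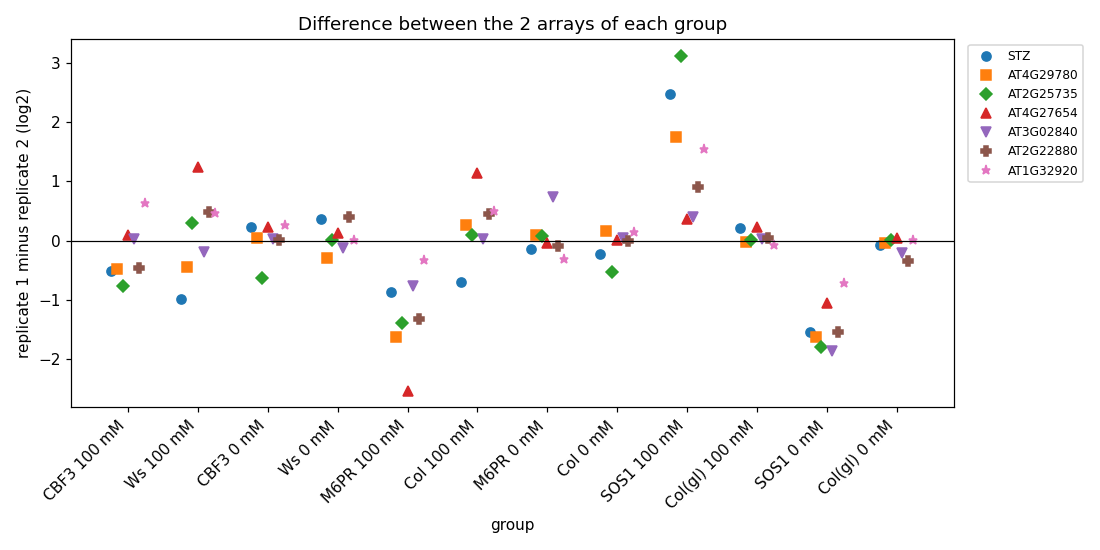
Replicate 1 minus replicate 2 (log2) of each of the 7 genes in each of the 12 groups; the line marks 0. All 7 points lie above 0 in SOS1 with salt and below 0 in SOS1 without salt and in M6PR with salt, while both Col(gl) groups stay within 0.34 of 0.

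Within-group spread was high for these genes. The residual SD over the 12 groups was 0.685 for STZ and 0.823 for AT2G25735, at the 98.3 and 99.2 percentile of all probe sets, and the lowest of the 7, 0.413 for AT1G32920, was at the 90.4 percentile. Over the 9 groups without the 3 named above, the SD ran from 0.185 for AT4G29780 (64.3 percentile) to 0.408 for AT4G27654 (94.5 percentile). It was 0.336 for STZ (91.0 percentile), with a median of 0.154 over all probe sets.

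Across the 12 group means, Pearson's r between pairs of the 7 genes had a median of 0.80 over 21 pairs. It was highest, 0.96, between STZ and AT1G32920 and lowest, 0.29, between AT2G25735 and AT4G27654. Without Col with salt these 3 values were 0.78, 0.95 and 0.20, and the pair of AT4G27654 and AT3G02840 went to 0.25, against 0.90 with all groups. Without the 2 arrays with low control signals the median was 0.80, the highest 0.97 and the lowest 0.31, for the same pairs. AT4G27654 thus shared its high values with the others mainly in Col with salt. The points share arrays and normalization, and the genes were chosen in the same data, so these values describe the set.

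The profiles most like that of STZ, by Pearson's r over 12 group means among 4169 single-gene probe sets with a span of at least 1 log2 unit, were AT4G27280 (r = 0.97), AT3G56880 (0.97), AT3G46600 (0.96), AT2G25250 (0.95), AT1G76600 (0.95) and ATSIK (0.94). Their group means spanned between 1.42 log2 units for AT2G25250 and 4.11 for AT1G76600. For the mean profile of the 7 genes they were AT3G10930 (r = 0.96), AT1G23710 (0.96), AT2G27080 (0.95), AT2G25250 (0.95), AT1G75230 (0.95) and AT1G76600 (0.95). AT2G25250 and AT1G76600 stood in both lists. Of the 6 genes in each list, 5 remained among the first 6 without the 2 arrays with low control signals.

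AT4G27654 lies between AT4G27652 and AT4G27657 in the order of protein-coding genes of TAIR10.1, and both flanking loci followed it. They were picked out after their values were seen. AT4G27652 read 9.39 and 8.61 log2 units in Col with salt, against 5.85 and 6.31 in Col without salt. AT4G27657 read 8.39 and 7.17 in Col with salt, against 4.70 and 4.62 in Col without salt. In M6PR with salt replicate 2 was the higher array for both, 7.76 against 6.26 in replicate 1 for AT4G27652 and 6.46 against 5.46 in replicate 1 for AT4G27657, as for AT4G27654. Over the 12 group means r with AT4G27654 was 0.97 for each, and without Col with salt it was 0.84 for AT4G27652 and 0.94 for AT4G27657. It was 0.96 and 0.94 without the 2 arrays with low control signals. Whether the probes of these 3 probe sets also bind each other's transcripts was not tested. Of the other 6 genes only AT4G29780, AT2G25735 and AT2G22880 had a flanking gene with a named probe set, and those had r between -0.51 and 0.72.

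**Figure D4:**
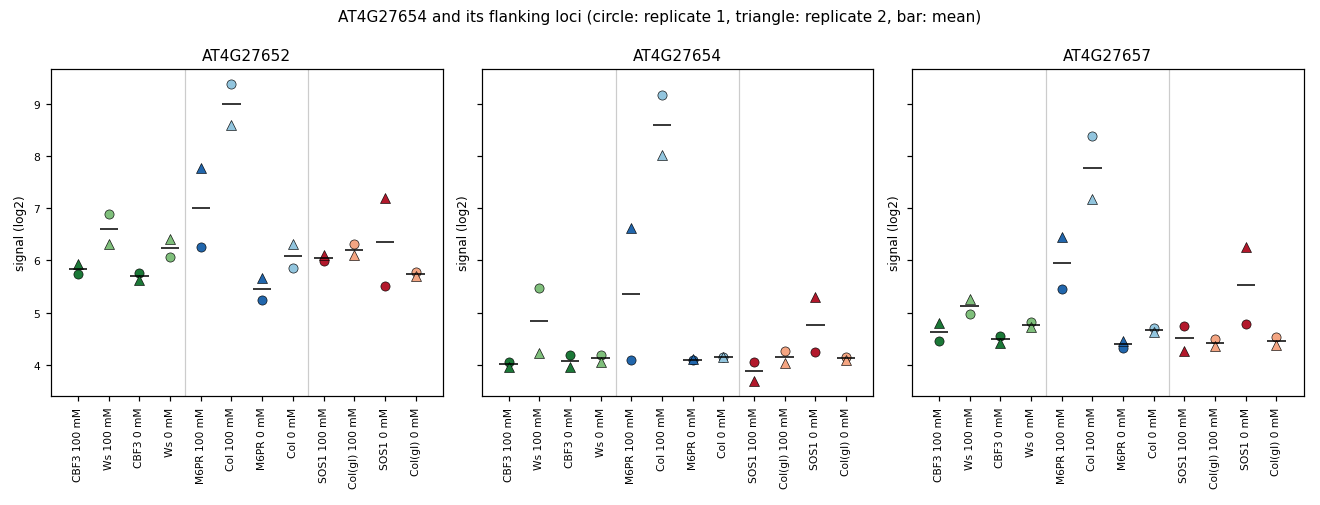
Signal (log2) of AT4G27654 and of the loci on either side of it in all 24 arrays, on a shared axis; circles are replicate 1, triangles replicate 2 and bars the mean of 2 arrays. All 3 are highest in Col with salt and have replicate 2 above replicate 1 in M6PR with salt and in SOS1 without salt.

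Further genes of the early stress response were drawn from lists of 132 entries: relatives of STZ, transcription factors, calcium and touch genes, early defence signalling and wound or jasmonate genes. Of these, 15 had a single-gene probe set with both the listed locus and the listed symbol, 0 of 10 relatives of STZ, 4 of 42 factors, 6 of 16 calcium genes, 4 of 39 signalling genes and 1 of 25 jasmonate genes. A further 4, ZAT5, ZAT18, CML40 and CML47, matched by locus alone and were left out of the counts; among them salt in Col went with 2.68 for CML40, -1.57 for CML47, 0.42 for ZAT18 and -0.55 for ZAT5. Tests are limma's moderated statistics, with Benjamini-Hochberg adjustment over all 22746 probe sets. The lists were chosen with earlier results of these data known. A count of list genes above the share of all probe sets is therefore a description and no test of the lists.

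Salt in Col raised 9 of the 15 and lowered 1, where 10.1% and 10.8% of all probe sets were called. All 4 measured factors rose: ORA47, an ERF factor of the jasmonate response, by 3.79 ± 0.42 log2 units (limma adjusted p = 0.00014), WRKY53, a factor of defence and senescence, by 3.0 ± 0.42 (adjusted p = 0.00057), WRKY22 by 2.77 ± 0.33 (adjusted p = 0.00021) and WRKY6 by 1.41 ± 0.35 (adjusted p = 0.011). Of the calcium genes 3 of 6 rose: CML38, a calmodulin-like gene known from touch and wounding, by 3.62 ± 0.92, CML23 by 2.48 ± 0.34 and CML37 by 1.64 ± 0.22, while CML39, CML41 and CML42 were at 1.20, -1.25 and -0.08 and did not pass. PUB23, for a ubiquitin ligase that dampens immune signalling, rose by 2.61 ± 0.50 and GRX480, for a glutaredoxin, by 2.09 ± 0.34; PUB22 and PUB24 were at 0.34 and 0.08. JMT, which methylates jasmonic acid, fell by 1.78 on the log2 scale (adjusted p = 0.036). The median of the 15 was 1.64, against -0.12 over all probe sets. With 1 of the 4 arrays left out the count was 7 to 9, against 10 with all, and 8 without the 2 arrays with low control signals. JMT lost its call without any 1 of the 4 arrays, CML38 without either unsalted array or without Col with salt replicate 1, and WRKY6 did without either unsalted array or without Col with salt replicate 2.

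Salt in Ws raised WRKY53 by 2.06 ± 0.42 (limma adjusted p = 0.013), ORA47 by 1.91 ± 0.42 and CML37 by 0.87 ± 0.22, and the other 12 did not pass; 2.62% of all probe sets were called higher. ORA47 read 6.23 and 8.26 in Ws with salt, and its difference was 0.89 or 2.92 with 1 of these arrays left out. The median of the 15 was 0.87, against -0.03 over all probe sets. The count was 2 without Ws with salt replicate 1 and 0 without Ws with salt replicate 2 or without either unsalted array. In M6PR salt raised ORA47 by 2.61 ± 0.42 (limma adjusted p = 0.011), beside 0.163% of all probe sets called higher, a call that held only without M6PR with salt replicate 2 when arrays were left out in turn. With limma 0 of the 15 passed for salt in CBF3, SOS1 and Col(gl), where 0, 4 and 1 had an unadjusted p below 0.05, beside 743, 1694 and 1205 of the 22746 probe sets. In SOS1 the count varied with the array left out, as did the count over all probe sets.

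**Figure D5:**
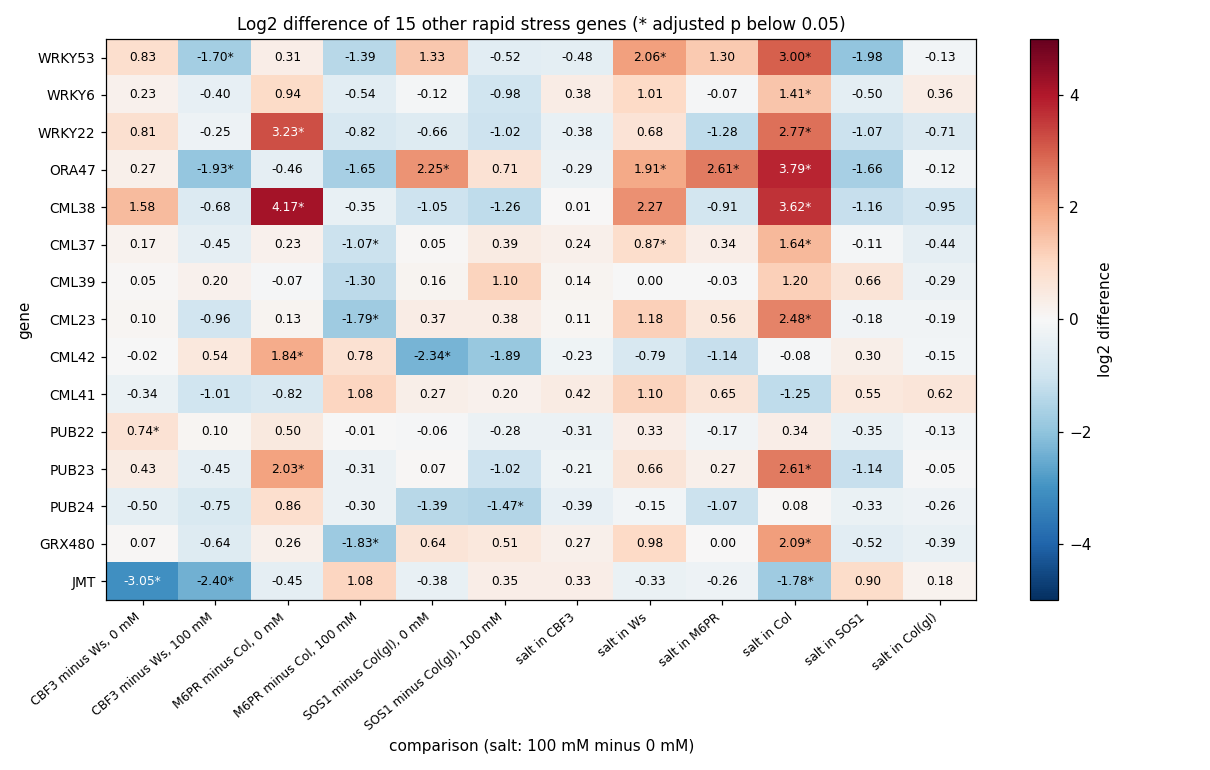
Log2 difference of the 15 other early stress genes (rows) in the 12 comparisons (columns); red is higher and blue lower in the first-named or salted group, the colour scale ends at 5 log2 units either way, and an asterisk marks a limma adjusted p below 0.05. Salt in Col has 10 marked genes, and the salt columns of CBF3, SOS1 and Col(gl) have 0.

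M6PR leaves without salt had 4 of the 15 higher than Col leaves, beside 4.87% of all probe sets: CML38 by 4.17 ± 0.92, WRKY22 by 3.23 ± 0.33 (limma adjusted p = 6.6e-05), PUB23 by 2.03 ± 0.50 and CML42 by 1.84 ± 0.52. WRKY22 kept its call without any 1 of the 4 arrays, and the other 3 lost theirs each time. The levels of CML38 were 9.34 and 9.22 in M6PR without salt, against 5.03 and 5.18 in Col without salt; Col(gl) without salt had 9.58 and 9.60. With salt GRX480 fell by 1.83 in M6PR against Col (limma adjusted p = 0.029), CML23 by 1.79 and CML37 by 1.07, beside 0.356% of all probe sets called lower. These 3 calls did not hold with every array left out, and each was lost without the 2 arrays with low control signals. With 1 array left out GRX480 lay between -2.19 and -1.46 and CML23 between -2.22 and -1.36. CML37 lay between -1.21 and -0.93. All 3 also lost their calls in a separate fit per background, with limma adjusted p of 0.0621 for GRX480, 0.0982 for CML23 and 0.114 for CML37. With array weights these were 0.0966, 0.0577 and 0.165.

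CBF3 leaves had JMT lower than Ws leaves at both salt levels, by 3.05 on the log2 scale without salt, where JMT fell with a limma adjusted p of 0.0039, and it fell by 2.40 with salt (adjusted p = 0.03). PUB22 rose by 0.74 ± 0.18 without salt, where 3.2% of all probe sets were called higher and 3.59% lower. With salt ORA47 fell by 1.93 and WRKY53 fell by 1.70, where 1.92% of all probe sets were called lower. With 1 array left out, the salted difference lay between -2.94 and -0.91 for ORA47 and between -3.33 and -1.46 for JMT. These counts of 2 and 3 were each 0 or 1 without any 1 of the 4 arrays compared, and with salt 1 without the 2 arrays with low control signals. In SOS1 against Col(gl) without salt ORA47 rose by 2.25 ± 0.42 (limma adjusted p = 0.02) and CML42 fell by 2.34 on the log2 scale, where 0.356% of all probe sets were called higher and 0.879% lower; CML42 lay between -3.47 and -1.20 with 1 array left out. With salt PUB24 fell by 1.47, where 1.7% of all probe sets were called lower. Both counts were 0 without either Col(gl) array compared. They also changed when 1 of the SOS1 arrays was left out, as did the counts over all probe sets.

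The clock gene GI, whose transcript follows the time of day and the only 1 of 10 clock genes measured, differed between some of the same groups. It averaged 9.12 ± 0.90 log2 units in CBF3 and 7.13 ± 0.05 in Ws without salt, 1.99 ± 0.49 higher in CBF3 (limma adjusted p = 0.022), and 9.47 ± 0.42 in M6PR and 8.24 ± 0.09 in Col without salt (SD, n = 2). With salt it averaged 9.67 ± 1.27 in CBF3 and 7.87 ± 0.26 in Ws, where STZ averaged 7.90 and 7.72, and 9.16 ± 0.67 in M6PR and 9.19 ± 0.37 in Col. Salt in Ws went with 0.75 ± 0.49 for GI and 3.01 ± 0.62 for STZ. In the SOS1 and Col(gl) groups its means lay between 9.68 and 9.81. The time of sampling is not given in the labels used here, and its part in the levels of the 7 genes was not tested.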

How the data were processed

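Leaf RNA of 12 groups, 2 arrays each, was measured on ATH1 arrays. The submitters' processing notes name GCOS and RMA and no version. Deposited by the authors was 1 log2 value per probe set and array, between 2.90 and 14.33, which entered the tests unaltered; RMA's normalization across arrays reduces a change that most genes share. Of 22810 probe sets, 64 controls were left out. The platform table gave 1 gene for 13513 of the rest, several for 503 and none for 8730. Symbols were updated through RefSeq (TAIR10.1); its coordinates are not printed because the files name no genome build.

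Titles and characteristics gave the groups. Sample descriptions of CBF3 and M6PR swap their backgrounds. Of 34 probe sets over 2 log2 units dimmer in all Ws than in all Col and Col(gl) arrays, all 34 were dim in each CBF3 array and 0 in any M6PR array, as the characteristics have it.

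limma 3.58.1 (R 4.3.3) was fitted over 24 arrays with 1 mean per group, 12 residual and 3.11 prior degrees of freedom, and two-sided tests adjusted by Benjamini-Hochberg at 0.05. SEs pool the spread of all groups, and p-values measure only the spread between these samples. The fit was tested on simulated data. The 7 genes and the lists were chosen with earlier results of these data known. List genes were kept where locus and symbol both matched. Up to 4 passing genes per list and comparison were named, others as values. Alternatives were quantile normalization, centring, array weights, a fit per background, leaving out the dimmest 40% of probe sets, a replicate block and leaving out arrays.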

Additional observations from a re-analysis of the deposited data

Results flagged for a closer look

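Several genes had all arrays moving one way in one comparison and all arrays the opposite way in the matching one. How many of all probe sets did so was not counted. In single comparisons, 21.4% had both M6PR arrays higher without salt and 23.7% both lower with salt, and for CBF3 28.6% and 21.9%. With salt, 15.7% were lower in CBF3 and 24.2% higher in Ws, and 20.2% lower in M6PR and 27% higher in Col. Salted Ws and salted Col each hold an array with low control signals. For each gene named here, the difference between the effects was not tested, because the genes were chosen for changes in these samples. Between M6PR and Col, STZ was at 3.32 log2 units without salt and -0.88 with salt, AT4G29780 at 2.13 and -2.38, AT3G02840 at 0.63 and -2.20, AT2G22880 at 1.22 and -2.12, and AT1G32920 at 3.18 and -0.81. Between CBF3 and Ws, AT4G29780 was at 1.54 without salt and -0.69 with salt, and AT1G32920 at 1.65 and -1.35. For salt, AT2G25735 was at -0.76 in CBF3 and 1.74 in Ws, and at -0.73 in M6PR and 4.24 in Col.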

How the results depend on the processing

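Under other normalizations, weights and fits and without the 2 arrays with low control signals, the median difference of the 7 genes kept its direction in all 12 comparisons and moved by less than the spread between replicates; without the dimmest probe sets it was not computed. With 1 array left out its sign varied for SOS1 against Col(gl) without salt, between -0.19 and 0.85. The sign also varied for salt in CBF3, between -0.01 and 0.16, and for salt in M6PR, between -0.33 and 0.64. The median ran between -1.21 and -0.10 for SOS1 against Col(gl) with salt, and between -1.83 and -0.39 for salt in SOS1. The count of the 15 list genes past the threshold was less stable. With array weights it was 4 for CBF3 against Ws without salt, 7 and 0 for M6PR against Col without and with salt, 0 and 2 for SOS1 against Col(gl) without and with salt, 6 for salt in Ws and 1 for salt in Col(gl). A separate fit per background gave 1 for CBF3 against Ws with salt, 1 and 0 for SOS1 against Col(gl) without and with salt, and 2 for salt in M6PR. Centring gave 1 for M6PR against Col with salt, and both centring and quantile normalization gave 2 for SOS1 against Col(gl) with salt. Without the dimmest 40% of probe sets these were 1 and 2. Without the 2 arrays with low control signals the count was 1 for CBF3 against Ws, 1 for M6PR against Col and 0 for SOS1 against Col(gl), all with salt, 1 for SOS1 against Col(gl) without salt and 1 for salt in SOS1.

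With 1 array left out the count lay between 0 and 1 for CBF3 against Ws without salt, 0 and 1 with salt, 1 in each case for M6PR against Col without salt, 0 and 6 with salt, 0 and 3 for SOS1 against Col(gl) without salt, 0 and 5 with salt, 0 and 2 for salt in Ws, 0 and 2 in M6PR, and 0 and 4 in SOS1. Counts over all probe sets varied with the array left out as well, and the cause was not tested. Matching by locus alone, chosen after seeing the data, gave 13 genes for salt in Col.

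Replicate numbers pair no samples by label, and same-numbered arrays deviated with r between -0.36 and 0.55. The replicate block left 11 genes past the threshold for salt in Col and 2 for M6PR against Col with salt, where CML37 had a limma adjusted p of 0.057. It called 7 of the 7 genes for salt in Col, beside 5053 of all probe sets. With 2 arrays per group, array number limits precision, and 1 aberrant array can set a group's value.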
